A study of Mus musculus with 6 samples.

Results

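The DUSP and Sprouty feedback inhibitors of mitogen-activated protein kinase (MAPK) signaling were examined in pathogenic Th17 cells from wild-type (WT) mice and from knockin mice with the N275D mutation. The set holds 10 genes chosen by symbol, namely the phosphatase genes *Dusp1*, *Dusp2*, *Dusp4*, *Dusp5*, *Dusp6*, *Dusp10* and *Dusp16*, and the adaptor genes *Spry1*, *Spry2* and *Spred1*. All 10 are among the 16244 genes of the table, and all 10 passed the filter for testing, which 11908 genes passed. Naive CD4+ T cells from the spleens of WT and N275D knockin mice were cultured for 3 days with anti-CD3 and anti-CD28 under pathogenic Th17 conditions, and mRNA was sequenced in 3 libraries of each genotype. Both genotypes therefore received the same T cell receptor and cytokine stimulation. The series design names IL-6, IL-1β and IL-23 as the polarizing cytokines, whereas the methods place IL-23 and IL-1β on top of TGF-β, IL-6 and antibodies to IL-4 and IFN-γ. The knockin allele, made with CRISPR-Cas9 on a C57BL/6 background, is carried by every cell of the mouse. Mice were 6 to 12 weeks old and of both sexes unless stated otherwise. In the methods, WT and knockin mice are listed with different sources. The paper lists the purchased WT mice as C57BL/6NJ and gives no substrain for the knockin. Any substrain difference cannot be told apart from genotype. Neither the zygosity of the mutant donors, the use of littermates, nor the number of mice behind a library is given for these samples.

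MAPK signaling passes from RAS through RAF and MEK to ERK, and through parallel cascades to p38 and JNK, and in T cells it is started by the antigen receptor and by cytokines. Dual-specificity phosphatases (DUSPs) of the MAP kinase phosphatase group remove phosphate from both the threonine and the tyrosine of an active kinase. Sprouty and Spred proteins act further upstream, where they restrain the activation of RAS and RAF. Many of these genes are themselves transcribed in response to MAPK activity, so that they form negative feedback loops.

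The stretch before the annotated gene start is shown for *Dusp5*, the member that rose most in mutant cells, and for *Spry1* and *Dusp2*, the members that fell. Each is the 250 bases upstream in the RefSeq annotation of GRCm38.p6, read 5′ to 3′ on the gene's strand, which is the plus strand for all 3. They lie at chr19:53528895-53529144 (*Dusp5*), chr3:37639697-37639946 (*Spry1*) and chr2:127335909-127336158 (*Dusp2*). Capitals mark matches to the motifs described next.
Dusp5: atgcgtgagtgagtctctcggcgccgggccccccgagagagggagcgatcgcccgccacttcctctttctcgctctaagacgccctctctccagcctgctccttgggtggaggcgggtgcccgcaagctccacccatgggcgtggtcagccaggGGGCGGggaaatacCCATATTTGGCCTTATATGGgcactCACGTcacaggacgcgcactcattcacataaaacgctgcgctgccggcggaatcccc
Spry1: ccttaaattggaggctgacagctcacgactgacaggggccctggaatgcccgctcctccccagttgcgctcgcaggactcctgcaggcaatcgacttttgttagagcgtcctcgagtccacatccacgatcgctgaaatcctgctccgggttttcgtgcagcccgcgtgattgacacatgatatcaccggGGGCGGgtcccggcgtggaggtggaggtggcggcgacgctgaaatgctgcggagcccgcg
Dusp2: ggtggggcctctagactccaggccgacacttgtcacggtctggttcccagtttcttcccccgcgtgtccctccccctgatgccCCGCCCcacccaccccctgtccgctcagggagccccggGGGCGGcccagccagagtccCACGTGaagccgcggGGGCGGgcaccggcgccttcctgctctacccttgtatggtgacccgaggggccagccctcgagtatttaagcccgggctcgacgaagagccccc

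Of the 10 members, 9 matched the RefSeq promoter table, and *Dusp4* did not. For *Dusp16* the stretch (chr6:134792629-134792878) lies inside the gene span of 134715468 to 134807063 on the minus strand. It precedes a start within that span, and not the outermost one. Both strands of each 250-base stretch were searched for the HIF core ACGTG, the ROR half-site AGGTCA, the AP-1 site TGANTCA, the cyclic AMP response element TGACGTCA, the ETS site CCGGAAG, the SP1 site GGGCGG, the TATA box TATAAA and the CArG box, at which serum response factor binds. *Dusp5* held a pair of CArG boxes directly next to each other, 82 to 63 bases before the gene start. It was the only one of the 9 members searched with a CArG box. A CArG box was found in 1.47% of all 32851 stretches of this length. The HIF core was found in *Dusp1*, *Dusp2*, *Dusp5* and *Spred1*, 4 of 9 members, beside 16.6% of all stretches. In *Dusp1* and *Dusp2* it was the palindrome CACGTG, which also reads as an E-box and matches on both strands. The ROR half-site was found only in *Dusp16* among the 9 members (14.0% of all stretches), in the stretch inside the gene. The cyclic AMP response element was found only in *Dusp1* (1.55%), where an SP1 site directly followed it. In *Dusp16*, which held 5 SP1 sites, a pair of them overlapped. SP1 sites were present in 7 of 9 members, beside 32.7% of all stretches. The members were richer in G and C, with a median of 64.0% against 52.4% over all stretches. Their median count of CG pairs was 23, against 6 over all stretches. The HIF core, the SP1 site, the cyclic AMP response element and the ETS site all contain CG, and the shares were not adjusted for this. For *Spred1*, the bases checked just after the start matched no GENCODE transcript of the gene. None of the 9 stretches held the AP-1 site, the ETS site or the TATA box. These are letter matches in a short window, and binding was not measured here.

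**Figure D1:**
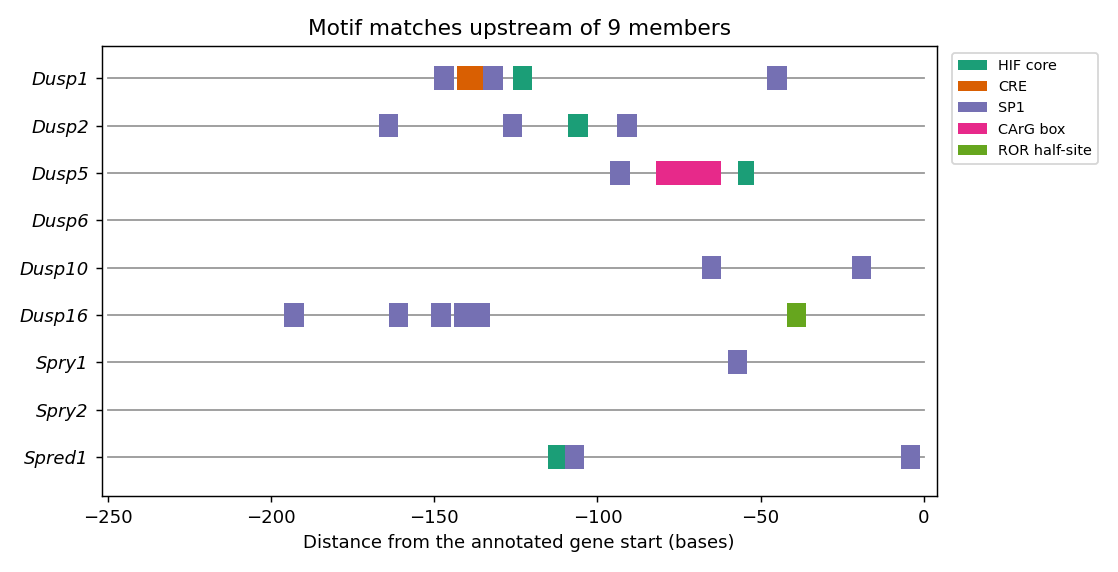
Positions of motif matches (colored blocks) in the 250 bases before the annotated gene start (x axis, bases, start at 0) for the 9 members in the RefSeq promoter table (rows). For *Dusp16* the start at 0 lies inside the gene span. The pair of CArG boxes in *Dusp5* lies 82 to 63 bases before the start, and *Dusp6* and *Spry2* have no match.

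Reads on genes ranged from 17659035 to 18510878 per library. Values are given as normalized reads, that is, gene counts that the authors scaled by a factor of each library's own. Fold changes are on the log2(normalized reads + 1) scale, mutant over WT, and were tested with limma over all 11908 genes with Benjamini-Hochberg adjustment. A gene was called where the adjusted p was under 0.05. The T cell genes *Cd3e* and *Cd4* and the Th17 genes *Il17a* and *Il23r* were well expressed. Summed normalized reads of 7 Th17 markers were 67860 to 72770 in WT and 83200 to 84600 in mutant libraries. Of these markers 6 were called higher, *Il17a* and *Il23r* among them, and 1 lower. Over all genes tested 24.7% were called higher and 26.1% lower. Summed normalized reads of 5 T cell markers were 23430 to 24030 in WT and 20430 to 21260 in mutant libraries (0 of 5 called higher and 3 lower). WT replicate 3 stood apart from the other WT libraries, with a median chi-square of 2.95 and 3.02 times what counting noise gives, against 1.32 to 1.54 for the other pairs of one genotype. Whether a bulk difference reflects fewer cells that express a gene or less RNA per cell cannot be told apart.

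Between N275D and WT Th17 cells, 5 members were called higher and 2 lower, and 3 were not called. The 5 higher members were all DUSPs (*Dusp5*, *Dusp4*, *Dusp6*, *Dusp1* and *Dusp16*), and the lower members were *Spry1* and *Dusp2*. Over all genes tested 50.9% were called, 24.7% higher and 26.1% lower, so that a call by itself is common in these libraries. The median log2 fold change was 0.19 over the 10 members, 0.24 over the 7 DUSPs and -0.0026 over all genes tested. Called at 2-fold or more were 0 members, beside 3.59% of all genes (2.73% higher and 0.857% lower). *Spry1*, at -0.99, lay just short of 2-fold and passed it in some alternatives. The genotypes did not overlap for 7 members, beside 57.7% of all genes tested, with mutant libraries above WT for 5 members (28.1% of all genes) and below for 2 (29.6%). Leaving out 1 library at a time gave 6 to 8 members called, with 6 (4 higher, 2 lower) without N275D replicate 1 and 8 (6 higher, 2 lower) without WT replicate 3, WT replicate 2 or N275D replicate 2. With 3 libraries against 3, an exact two-sided permutation test of a single gene cannot go below p = 0.1, which is its value for each of these 7.

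**Figure D2:**
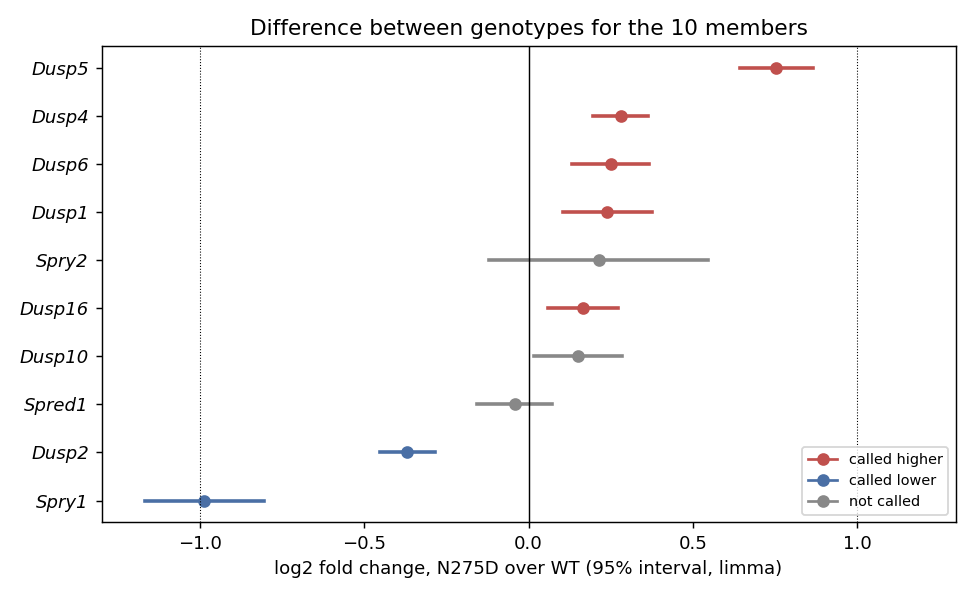
log2 fold change of each member, N275D over WT (x axis), as a point with its 95% interval from limma. Red marks genes called higher, blue genes called lower and grey genes not called, and dotted lines mark 2-fold. *Dusp5* (0.75) and *Spry1* (-0.99) lie farthest from 0.

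*Dusp5* encodes a nuclear phosphatase that is selective for ERK and is induced by ERK activity. It is the member with the pair of CArG boxes shown above, and lies on chromosome 19 (53529145 to 53541809, plus strand, GRCm38). It had 585, 610 and 584 normalized reads in the WT libraries and 987, 974 and 1045 in the mutant libraries. Every mutant library exceeded every WT library by a wide margin, and replicates of a genotype lay close together. *Dusp5* averaged 593 ± 14.6 in WT and 1002 ± 37.6 in the mutant (SD, n = 3 each), which is a log2 fold change of 0.75 (95% interval 0.64 to 0.87, adjusted p = 8.76e-09 from limma). This placed *Dusp5* at the 95.3 percentile of fold changes over all genes tested.

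*Dusp4* (chromosome 8, 34807610 to 34819894, plus strand) encodes MKP-2, an inducible nuclear phosphatase that acts on ERK and other MAP kinases. Its normalized reads were 3927, 3864 and 4181 in WT and 4967, 4790 and 4778 in mutant libraries. The genotypes did not overlap, with means of 3991 ± 168 and 4845 ± 106 (SD, n = 3 each). The increase of *Dusp4* was 0.28 on the log2 scale (95% interval 0.20 to 0.36, adjusted p = 2.29e-05 from limma). It was the most abundant member by normalized reads in both genotypes.

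*Dusp1* (chromosome 17, 26505591 to 26508472, minus strand) encodes MKP-1, an immediate early nuclear phosphatase that acts mainly on p38 and JNK. The WT libraries had 420, 417 and 468 normalized reads of *Dusp1*, and the mutant libraries 523, 498 and 518. The lowest mutant library lay just above the highest WT library, which was replicate 3. *Dusp1* rose from 435 ± 28.5 to 513 ± 13.6 (SD, n = 3 each), by 0.24 on the log2 scale (95% interval 0.10 to 0.38, adjusted p = 0.00522 from limma).

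*Dusp2* (chromosome 2, 127336159 to 127338377, plus strand) encodes PAC-1, a nuclear phosphatase of activated lymphocytes that acts on MAP kinases and has also been described to dephosphorylate STAT3, the transcription factor downstream of IL-6 and IL-23. Unlike the other nuclear phosphatases of the set, *Dusp2* was lower in mutant cells. It had 3177, 3279 and 3303 normalized reads in WT libraries and 2575, 2535 and 2450 in mutant libraries. The spread within a genotype was small beside the gap between genotypes. The means were 3253 ± 66.9 and 2520 ± 63.6 (SD, n = 3 each), for a log2 fold change of -0.37 (95% interval -0.45 to -0.29, adjusted p = 1.16e-06 from limma).

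*Dusp6* (chromosome 10, 99263231 to 99267489, plus strand) encodes MKP-3, the cytoplasmic ERK phosphatase whose transcript is often used as a readout of ERK activity. It had 844, 926 and 917 normalized reads in WT and 1130, 1051 and 1015 in mutant libraries. The genotypes did not overlap, although the spread was wider than for *Dusp5*. Means were 896 ± 45.2 and 1066 ± 58.7 (SD, n = 3 each), and the log2 fold change was 0.25 (95% interval 0.13 to 0.37, adjusted p = 0.00142 from limma).

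*Dusp16* and *Dusp10* encode MKP-7 and MKP-5, which act on JNK and p38 rather than ERK. *Dusp16* (chromosome 6, 134715468 to 134807063, minus strand) had 929, 959 and 979 normalized reads in WT and 1114, 1024 and 1080 in mutant libraries. Its genotypes did not overlap, and its mean rose from 956 ± 25.6 to 1073 ± 45.4 (SD, n = 3 each), for a log2 fold change of 0.17 (95% interval 0.06 to 0.27, adjusted p = 0.0114 from limma). Without N275D replicate 1, *Dusp16* was no longer called (log2 fold change 0.14, adjusted p = 0.0691 from limma). *Dusp10* (chromosome 1, 184034381 to 184075636, plus strand) had 453, 448 and 481 normalized reads in WT and 530, 481 and 524 in mutant libraries. The genotypes of *Dusp10* met, since N275D replicate 2 lay at the level of WT replicate 3. It had means of 461 ± 18.0 and 512 ± 27.1 (SD, n = 3 each) and was not called (log2 fold change 0.15, 95% interval 0.02 to 0.28, adjusted p = 0.0573 from limma). Over all alternatives the adjusted p of *Dusp16* was 0.00239 to 0.0691 and that of *Dusp10* 0.0188 to 0.191. *Dusp10* was called without WT replicate 3 (adjusted p = 0.0188), without N275D replicate 2 (adjusted p = 0.0377) and by edgeR on the recovered reads (adjusted p = 0.0438), and in none of the other 13 alternatives.

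**Figure D3:**
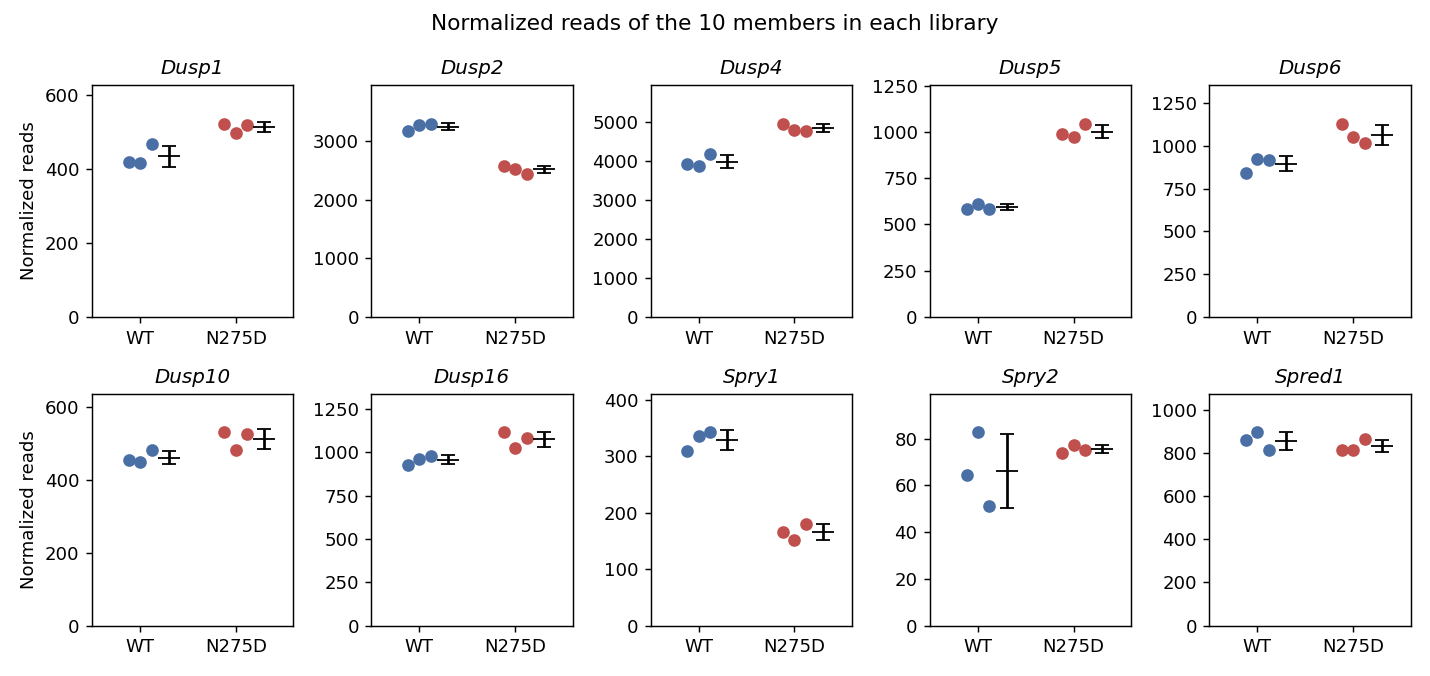
Normalized reads (y axis, from 0, a scale of its own for each gene) in the 3 WT (blue) and 3 N275D (red) libraries, with the mean and SD beside each group. *Dusp5* and *Spry1* show the widest gaps between genotypes, and *Spry2* varied from 51.1 to 82.7 among the WT libraries.

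*Spry1* (chromosome 3, 37639947 to 37644599, plus strand) encodes a Sprouty adaptor that restrains RAS-ERK signaling downstream of receptors, the T cell receptor among them. Its normalized reads were 309, 337 and 343 in WT and 166, 151 and 181 in mutant libraries. The highest mutant library lay far below the lowest WT library. *Spry1* fell from 330 ± 18.1 to 166 ± 14.6 (SD, n = 3 each), to 50.4% of its WT mean, with a log2 fold change of -0.99 (95% interval -1.17 to -0.81, adjusted p = 1.13e-07 from limma). Only 0.899% of all genes tested had a fold change as low as or lower than that of *Spry1*.

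*Spry2* (chromosome 14, 105891947 to 105896819, minus strand), a closely related adaptor, was the least expressed member. It had 64.6, 82.7 and 51.1 normalized reads in WT and 73.9, 77.2 and 75.1 in mutant libraries, and the genotypes overlapped. Its WT libraries varied with a coefficient of variation of 24.0%, where counting alone gives 12.3%. *Spry2* was not called (log2 fold change 0.21, 95% interval -0.12 to 0.55, adjusted p = 0.275 from limma). That interval holds neither the fall of *Spry1* nor a 2-fold rise. Without WT replicate 3 the log2 fold change was 0.044 (adjusted p = 0.828, limma), and without WT replicate 2 it was 0.39 and called (adjusted p = 0.0491, limma), where the alternatives as a whole gave adjusted p from 0.0491 to 0.887.

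*Spred1* (chromosome 2, 117121071 to 117182279, plus strand) encodes a Sprouty-related protein that brings the RAS GTPase-activating protein neurofibromin to the membrane. It had 861, 895 and 812 normalized reads in WT and 815, 814 and 865 in mutant libraries, which overlapped throughout. Its log2 fold change was -0.04 (95% interval -0.16 to 0.07, adjusted p = 0.540 from limma), and it was not called under any alternative. Within a library, *Spred1* reads were 2.60 ± 0.21 times those of *Spry1* in WT and 5.02 ± 0.31 times in mutant cells (SD, n = 3 each).

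To compare levels between members, normalized reads were divided by the length in kilobases of the longest protein-coding GENCODE transcript of each gene. Per kilobase, the WT order was *Dusp2* (2012 ± 41.4), *Dusp4* (1457 ± 61.3), *Dusp6* (320 ± 16.2), *Dusp5* (240 ± 5.92), *Dusp1* (218 ± 14.3), *Dusp16* (187 ± 5.01), *Dusp10* (165 ± 6.44), *Spred1* (142 ± 6.89), *Spry1* (119 ± 6.54) and *Spry2* (31.7 ± 7.61; SD, n = 3). No neighbors in this order overlapped between WT libraries. In mutant cells the order changed at 2 places, with *Dusp4* (1768 ± 38.5) above *Dusp2* (1558 ± 39.3) and *Dusp5* (405 ± 15.2) next to *Dusp6* (381 ± 21.0), which overlapped. The order rests on 1 transcript per gene and would shift if another isoform was the main one.

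The make-up of the phosphatase transcripts differed between genotypes, whereas their sum per kilobase overlapped. Summed over the 7 DUSPs, the level per kilobase was 4492, 4574 and 4733 in WT and 4879, 4709 and 4705 in mutant libraries. This overlap depends on the division by length, in which *Dusp2* has the shortest transcript (1617 bases, against 2740 for *Dusp4*). Summed without that division, normalized reads of the 7 DUSPs were higher in every mutant library than in every WT library. The shares likewise rest on 1 transcript length per gene. *Dusp2* held 43.8% ± 0.59 of that sum in WT and 32.7% ± 0.55 in mutant cells, while *Dusp4* held 31.7% ± 0.74 and 37.1% ± 0.044 (SD, n = 3 each). The share of *Dusp5* was 5.22% ± 0.21 in WT and 8.51% ± 0.42 in mutant cells. The ratio of *Dusp4* to *Dusp2* reads, which needs no length, was 1.24, 1.18 and 1.27 in WT and 1.93, 1.89 and 1.95 in mutant libraries. For *Dusp5* over *Dusp6*, both selective for ERK, the ratio was 0.69, 0.66 and 0.64 in WT and 0.87, 0.93 and 1.03 in mutant libraries. These ratios were chosen after the values were seen and are given without a test.

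**Figure D4:**
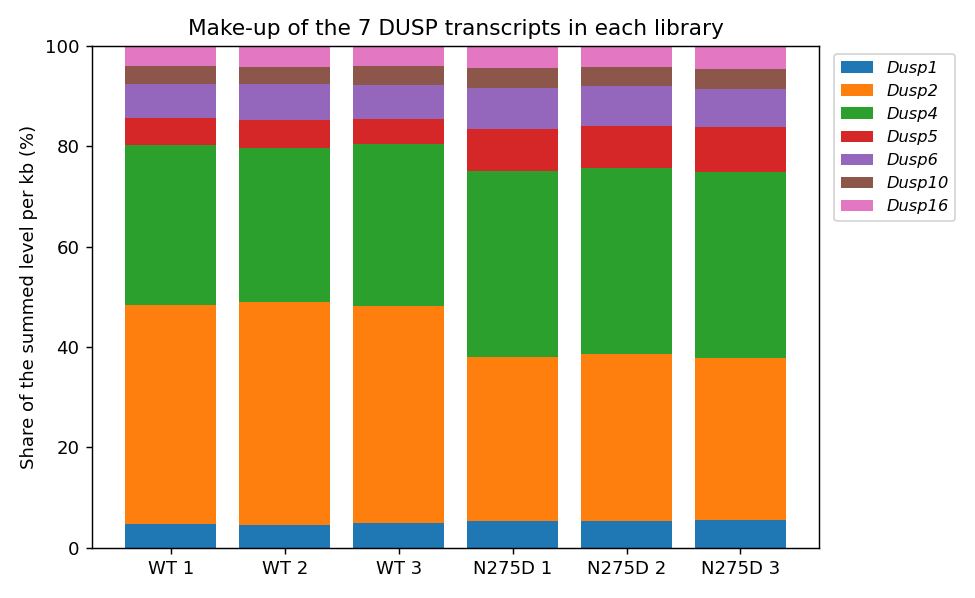
Share of each DUSP transcript (colors) in the summed level per kilobase of the 7 DUSPs (y axis, percent, stacked to 100) in each library (x axis). The *Dusp2* share is 43.2% to 44.3% in the WT libraries and 32.2% to 33.3% in the mutant libraries.

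Other negative regulators of the pathway moved in both directions. Of 33 other phosphatase and inhibitor genes tested, 11 were called higher and 7 lower, with a median log2 fold change of 0.06, and 54.5% were called beside 50.9% of all genes. Among the other MAP kinase phosphatases, *Dusp8* rose by 0.68 on the log2 scale, from 95.1 ± 15.6 normalized reads to 154 ± 26.2 (SD, n = 3 each; adjusted p = 0.000586 by limma). *Dusp7* and *Dusp9* were not called. Of 10 atypical DUSPs tested, which lack the MAP kinase binding domain, 5 were called beside 50.9% of all genes tested, 2 higher (*Dusp22* at 0.32 and *Dusp11* at 0.29) and 3 lower (*Dusp18* at -0.79, *Dusp14* at -0.66 and *Dusp12* at -0.32).

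Of 20 other Sprouty, Spred and RAS-ERK inhibitors tested, 8 were called higher and 4 lower, or 60.0% beside 50.9% of all genes tested. *Spred3*, a relative of *Spred1*, had 58.3 ± 3.69 normalized reads in WT and rose to 131 ± 13.7 (SD, n = 3 each; log2 fold change 1.15, adjusted p = 1.13e-06 from limma). *Cblb*, a ubiquitin ligase that restrains T cell activation, rose from 865 ± 36.3 to 1857 ± 61.9 (SD, n = 3 each; log2 fold change 1.10, adjusted p = 3.25e-11 from limma). *Ptpn5*, a tyrosine phosphatase that acts on ERK and p38, rose by 0.90 on the log2 scale, whereas *Ptpn7*, the related phosphatase of lymphocytes, was lower (-0.33). *Rasal3*, a RAS GTPase-activating protein of T cells, was also lower (-0.30). *Spry4* was low throughout, at 31.3 ± 4.36 normalized reads in WT against 20.3 ± 6.64 in the mutant (SD, n = 3 each; log2 fold change -0.64, adjusted p = 0.0389 from limma). *Spry3*, at no more than 3.01 normalized reads in any library, was not tested.

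Among 47 genes of the kinase cascades tested, 19 were called higher and 12 lower, with a median log2 fold change of 0.10, and 0 at 2-fold (3.59% of all genes). That is 66.0% called, beside 50.9% of all genes tested (24.7% higher and 26.1% lower). In the RAS-RAF-MEK-ERK cascade 8 of 20 were called higher and 6 lower (70.0% called). *Map2k1*, which encodes MEK1, had 2427 ± 43.2 normalized reads in WT and rose to 3427 ± 49.5 (SD, n = 3 each; log2 fold change 0.50, adjusted p = 2.55e-08 from limma). *Mapk3*, which encodes ERK1, rose by 0.35 and *Sos1*, a RAS exchange factor, by 0.23 on the log2 scale. *Ksr1*, a scaffold for RAF, MEK and ERK, was lower (-0.42), as were *Ptpn11* (-0.28) and *Hras* (-0.26). In the p38 cascade 5 of 12 were called higher, led by the kinase genes *Map2k6* (0.59), *Mapk14* (0.20) and *Map3k5* (0.19), and 2 lower, *Map2k3* (-0.33) and *Mapkapk3* (-0.15), so that 58.3% were called. In the JNK cascade 6 of 15 were called higher, led by *Map4k3* (0.56), *Map3k2* (0.22) and *Mapk8ip3* (0.20), and 4 lower, led by *Map4k1* (-0.37), *Map3k11* (-0.29) and *Map3k7* (-0.27), so that 66.7% were called.

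Of 22 other transcripts known to respond to MAPK activity, 14 were called lower and 6 higher, with a median log2 fold change of -0.37. *Egr3* (-1.55), *Epha2* (-1.17) and *Nr4a1* (-0.84) fell most, and *Phlda1* (0.91), *Plaur* (0.86) and *Etv5* (0.68) rose most. *Egr3* and *Nr4a1* are also early targets of T cell receptor signaling. The median of this list and that of the DUSP members thus had opposite signs, with *Spry1* and *Dusp2* on the side of the lower transcripts. The list had 90.9% of its genes called beside 50.9% of all genes tested.

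**Figure D5:**
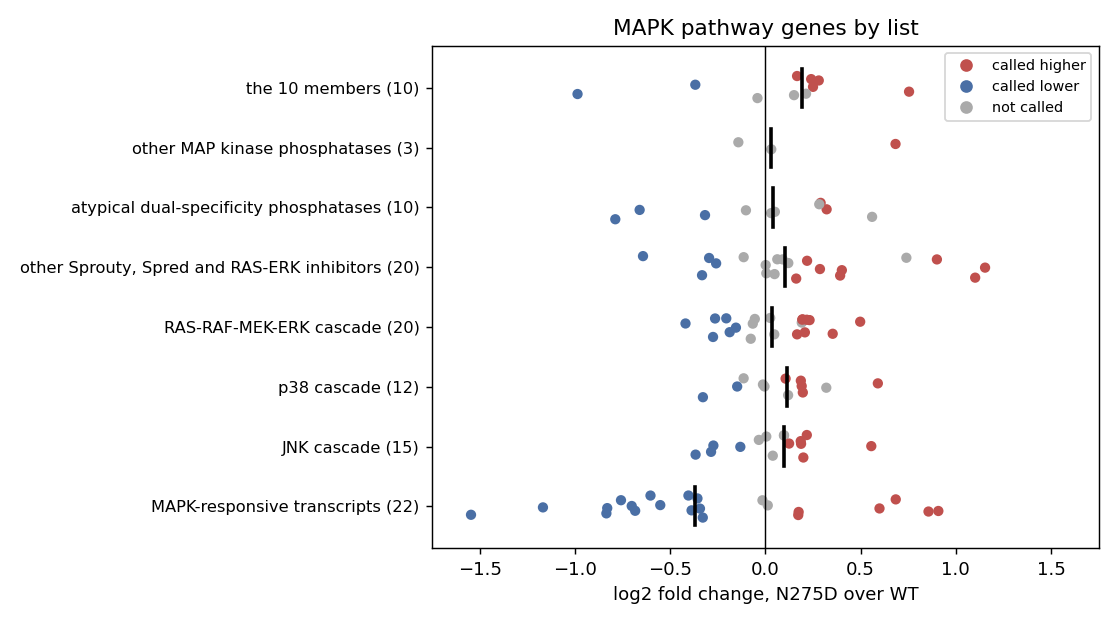
log2 fold change, N275D over WT (x axis), of each gene tested, with 1 point per gene, 1 row per list (number tested in parentheses) and a black bar at the list median. The MAPK-responsive transcripts have a median of -0.37, the lowest of the rows, and the 10 members one of 0.19.

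Markers of other cell types were also measured, where 24.7% of all genes tested were called higher and 26.1% lower. Summed normalized reads of 7 B cell markers were 173 to 183 in WT and 269 to 328 in mutant libraries, with 5 of 6 tested called higher. Those of 5 CD8 T and natural killer markers were 201 to 216 and 284 to 325, with 3 of 4 called higher. For 5 stromal and endothelial markers the sums were 332 to 407 and 451 to 520, with 1 of 3 called higher, and for 8 myeloid markers 99.9 to 122 and 112 to 142, with 1 of 3 called higher and 1 lower and the genotypes overlapping. Of the gamma delta T markers *Sox13* was in the table, at 18.2 to 31.4 in WT and 35.1 to 38.5 in mutant libraries. No marker in the table was at 0 in every library, but the B cell marker *Ms4a1* was at 0 in 2 WT libraries and the natural killer marker *Klrb1c* at 0 in all 3 mutant libraries. *Pecam1*, at 277 to 349 in WT and 395 to 446 in mutant libraries, made up most of the stromal and endothelial sum. For comparison, the lowest library of *Spry1* had 151 normalized reads. The part of these cells in the differences of the DUSP and Sprouty genes was not tested.

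Long noncoding RNA genes overlap *Dusp6* (*Gm34921*) and *Dusp16* (*Gm36328* and *1700055D16Rik*) in the RefSeq annotation of GRCm38. The methods describe strand-specific libraries and the labels name a directional kit, but whether the counting used strand is not given, so it is not known whether reads of the overlapping genes entered the counts of these 2 members. No other member overlapped another annotated gene.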

How the data were processed

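RNA-seq libraries of pathogenic Th17 cells, 3 from WT and 3 from N275D knockin mice, were analyzed, with genotype and replicate number taken from the library names. The methods describe read trimming, alignment by STAR to the mm10 build (also named in the submitters' processing notes), counting by featureCounts and a DESeq2 comparison. Software versions, the annotation and the counting of shared reads are not given in the sources used here. The deposited values (unit: signal) are gene counts that the authors scaled by a library's own factor, 0.982 to 1.01. Dividing by it gave whole reads within 1e-06 for 100% of values above 0 in every library, and these were used in count tests. Before dividing, 0% of these values were whole to the same tolerance. The table also holds the authors' fold changes, q-values and group averages, which were not used. Columns of per-sample values left unused numbered 0.

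Genes with a mean of at least 10 were tested with limma (version 3.58.1, R 4.3.3, trended prior, no block) on log2(normalized reads + 1). The count tests edgeR (4.0.16) and DESeq2 (1.42.0) on the recovered reads were run as alternatives, beside other pseudocounts, filters, scalings, the replicate block and leaving out each library. Scripts were tested on simulated data. The level of the mutated gene is not reported here. The members and gene lists were chosen with earlier results of these data known, so no list was given a test. Genes named outside the 10 members are the 3 largest increases and decreases among the called genes of each list with means of at least 10 in both genotypes. *Cd3e*, *Cd4*, *Il17a*, *Il23r*, *Sox13*, *Ms4a1*, *Klrb1c* and *Pecam1* are named as cell type markers, and *Dusp7*, *Dusp9* and *Spry3* to complete their families, chosen after their values were seen. Replicates are not stated to come from separate mice or cultures, so p-values measure the spread between these libraries, which may be technical.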

Additional observations from a re-analysis of the deposited data

How the results depend on the processing

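Of the 7 called members, *Dusp1*, *Dusp2*, *Dusp4*, *Dusp5*, *Dusp6* and *Spry1* kept their direction and their call in each of 16 alternatives run. Leaving out 1 library at a time gave log2 fold changes of 0.14 to 0.20 for *Dusp16*, which lost its call without N275D replicate 1, 0.12 to 0.19 for *Dusp10*, and 0.044 to 0.39 for *Spry2*. *Dusp10* was called by edgeR (log2 fold change 0.16). *Spry2* was not tested with a minimum mean of 100. With a 2-fold minimum on the main fit, 0 members were called (0 higher, 0 lower), as were 427 genes in all (325 higher, 102 lower), 2 other phosphatases and inhibitors (2 higher, 0 lower), 0 cascade genes (0 higher, 0 lower) and 2 MAPK-responsive transcripts (0 higher, 2 lower). The 0 for members depends on the setting. *Spry1* passed 2-fold with quantile normalization (log2 fold change -1.08), without WT replicate 1 (-1.03) and without N275D replicate 3 (-1.05). In eBayes without a trend, 12 cascade genes were called higher in place of 19, and the cause was not tested. In either direction that setting called 22 of 47 cascade genes in place of 31. Over all 11908 genes it called 5323 in place of 6056, so that these shares lay closer together than in the main fit. The replicate numbers are not stated to pair the samples. Deviations of same-numbered libraries correlated at -0.05, 0.04 and -0.08, and not every library correlated best with its own number. With so few libraries, these values cannot decide whether same-numbered libraries shared a culture or a day. With the replicate block, 7 members were called (5 higher, 2 lower) and 5727 genes in all, 2805 higher and 2922 lower. TMM and quantile scaling moved the median of all genes by less than 0.1 on the log2 scale. Depth limits *Spry2* most, with 52 to 82 recovered reads per library.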
